A study of Homo sapiens with 39 samples.

Results

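U87-MG cells that had received a single dose of 8Gy were compared with sham-irradiated (0Gy) cells 6 days after exposure, across all genes measured on the array. The comparison rests on the samples titled 8Gy on day 6 and those titled 0Gy on day 6, 3 of each, which are 6 of the 39 samples of the series. The series examined how an irradiated glioblastoma cell population behaves up to and after the return of growth, with 0, 8 and 16Gy groups on days 1, 4, 6 and 35. Expression was measured on Illumina HumanHT-12 v4 bead arrays, which report the brightness of a probe for each transcript.

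U87-MG is an established human glioblastoma line that was grown in medium with serum, and all groups used here are this 1 line in culture, with no other cell type added. The 8Gy cells were exposed acutely to a Cs-137 source at 0.48Gy per minute after they had been plated overnight, and the 0Gy cells were sham irradiated alongside in each experiment. Replicates 1 to 3 are independent experiments. Replicate 1 of each group is the authors' average of 2 technical runs of the same RNA. The p-values below therefore measure the spread between 3 cultures of a single line.

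Ionizing radiation breaks DNA, and the p53 protein, which is wild type in U87-MG, answers by switching on genes such as CDKN1A that hold the cell cycle. Cells that stay alive without dividing can turn on a secretory program of interleukins, chemokines and proteases, much of it through the transcription factor NF-kB. Growing cells need new membrane lipid and amino acids, and they keep the genes of sterol, fatty acid and amino acid synthesis on through the factors SREBP and ATF4.

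The 6 samples had been normalized together with the other short-term samples and their median log2 signals lay between 6.71 and 6.73. A background level, taken from probes of olfactory receptor genes, lay between 6.79 and 6.85, and 17612 to 19671 probes were above it. Samples of a group correlated at r of 0.983 to 0.990 across genes. Of 12 markers of U87-MG, 10 were above background on all 6 arrays, among them VIM, CD44, FN1 and TNC, while the astrocyte marker GFAP was below it on all 6. Of 11 leukocyte markers, PTPRC, ITGAM, CD3E and TYROBP were below background on all 6 arrays and 4 were above it on all 6 (CD14, CD68, CSF1R and NCAM1). The summed leukocyte marker signal was 4161 to 4703 at 0Gy and 5305 to 5542 at 8Gy, and most of it came from CD68, a lysosomal protein, at 11.30 to 11.68 against 11.92 to 12.03 (log2). None of the 6 leukocyte markers tested was called in limma (4 had an unadjusted p under 0.05), and no endothelial or epithelial marker was above background on all 6 arrays. GAPDH differed by -0.03 on the log2 scale (SE 0.09).

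A gene was called when its limma adjusted p was under 0.10 over the 11340 genes tested and its fold change was over 1.5. By this rule 365 genes (3.22% of those tested) differed between 8Gy and 0Gy on day 6. Of these, 230 were higher (2.03%) and 135 were lower (1.19%), so 63% of the calls were rises. The rises were also larger. Of the higher genes, 96 exceeded a fold of 2 and 15 a fold of 4, against 17 and 1 of the lower genes. The median change was 0.88 among the higher genes, -0.70 among the lower genes and -0.03 over all genes tested, on the log2 scale. The 3 samples of each group did not overlap in 218 of the higher and 130 of the lower genes, and over all tested genes 23.2% had groups that did not overlap (9.68% with 8Gy higher, 13.5% with 8Gy lower). The array reads RNA from the whole culture, so a change in RNA per cell and a change in the share of cells that express a gene cannot be told apart.

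Leaving out 1 sample at a time, 165 of the higher and 57 of the lower genes were called in all 6 fits. The lower count was the less steady. It was 208 when replicate 1 of 0Gy was left out and 226 when that of 8Gy was, and it lay between 108 and 124 for the other samples.

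Promoter sequence is shown for the chemokine and interleukin genes that rose and for ATF4-regulated genes, because their regulators bind short, known motifs. The sequences are those of RefSeq (GRCh38.p14), from a window that runs from 250 bases before to 50 bases after the gene's start. Both strands were searched for the kB consensus GGGRNNYYCC, which NF-kB binds (R is A or G, Y is C or T, N is any base). The AP-1 motif TGANTCA, the amino acid response motif TGATGNAA and the sterol response motif TCACNCCAC were searched as well. Among tested genes the sterol motif was in 1 of 18 cholesterol and 0 of 12 fatty acid promoters. No called gene of either list held it, and 1% of the promoters of all genes tested do. Capitals mark the motif, and each line is written 5′ to 3′ on the strand of the gene. All 4 CXC chemokines that rose had a promoter in the table, and CXCL1, CXCL2 and CXCL5 held a kB match there, which 10.8% of 27305 promoters hold. CXCL8 held no match to the kB letters searched in this window, and kB sites that depart from them were not sought. It held an AP-1 match, as did IL1RN, which 7.76% of promoters and 4.88% of those of the genes tested hold. IL6 and CCL20 also held a kB match, so that 5 of the 11 genes with a promoter held one among 17 searched (the 15 largest rises and the CXC calls), too few with a promoter to read as a share. Of the promoters of the genes tested, 12.6% hold the kB motif, against 16.7% of those of genes called higher and 11.4% called lower. ACACA and SREBF1, which fell, held it too. The CCL20 match reads on the opposite strand.
CXCL1 (chr4:73869294-73869343, plus strand): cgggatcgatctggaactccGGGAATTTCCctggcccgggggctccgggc
CXCL2 (chr4:74099244-74099293, minus strand): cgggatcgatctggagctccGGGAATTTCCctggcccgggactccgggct
CXCL5 (chr4:73998739-73998788, minus strand): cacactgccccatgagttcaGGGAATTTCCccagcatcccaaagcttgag
IL6 (chr7:22727107-22727156, plus strand): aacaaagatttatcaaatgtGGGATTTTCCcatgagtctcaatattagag
CCL20 (chr2:227813743-227813792, plus strand): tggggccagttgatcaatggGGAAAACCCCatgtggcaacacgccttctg
CXCL8 (chr4:73740412-73740458, plus strand): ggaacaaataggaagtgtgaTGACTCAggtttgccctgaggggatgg
The first 3 sequences share the same kB letters, and CXCL1 and CXCL2 are alike over nearly the whole stretch shown. The kB match starts 79, 78 and 91 bases before the gene's start in CXCL1, CXCL2 and CXCL5 and 73 bases before it in IL6.

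For the amino acid response motif, the 15 largest falls and the ATF4-list genes that were called (20 genes) were searched the same way. Of these, 18 had a promoter. ASNS, ATF3 and IL21R held the TGATGNAA motif, which 3.67% of all promoters and 1.83% of those of the genes tested hold. ASNS and ATF3 are shown because both belong to the ATF4 list and changed in opposite directions.
ASNS (chr7:97872449-97872496, minus strand): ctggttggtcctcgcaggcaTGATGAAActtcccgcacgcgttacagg
ATF3 (chr1:212565196-212565243, plus strand): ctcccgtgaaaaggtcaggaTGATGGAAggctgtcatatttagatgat
A match of letters is a description of the sequence, and binding was not measured here.

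The largest rise was that of PI3, which encodes elafin, a secreted inhibitor of elastase. Its log2 signal was 8.26, 8.87 and 7.10 in the 0Gy replicates 1 to 3 and 12.74, 13.33 and 12.01 in the 8Gy replicates. The lowest 8Gy sample thus lay more than 3 log2 units above the highest 0Gy sample. The fitted change was 4.62 (SE 0.22, limma adjusted p = 5e-15), a fold of 24.6. In both groups replicate 3 was the lowest and replicate 2 the highest. C11orf96, another of the 15 largest rises, belongs to none of the gene lists used here and went from 9.57, 10.15 and 8.92 to 11.65, 12.43 and 11.35, a rise of 2.27 (SE 0.28, adjusted p = 1.77e-06).

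**Figure D1:**
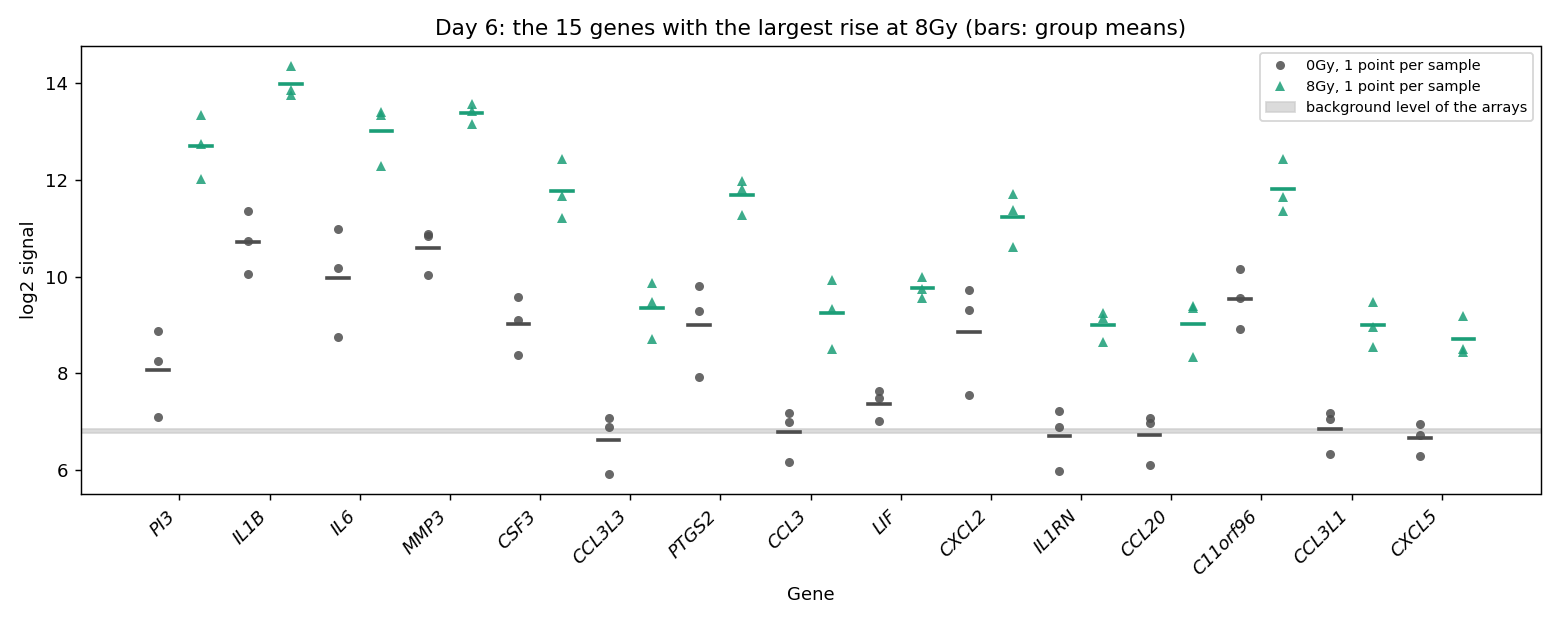
Log2 signal (vertical axis) of the 15 genes with the largest rise at 8Gy on day 6, 1 point per sample, with bars at the group means and a band at the background level of the arrays (6.79 to 6.85). In each gene the 3 samples at 8Gy lie above the 3 at 0Gy, and the 0Gy samples of CCL3L3, CCL3, IL1RN, CCL20, CCL3L1 and CXCL5 lie at or near background.

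The interleukin-1 family, a set of cytokines that start and limit inflammation, had 6 of 17 tested members higher and none lower, with a list median of 0.44 against -0.03 over all genes. IL1B, the main secreted agonist, was bright already at 0Gy (10.73, 11.36 and 10.06) and reached 13.85, 14.34 and 13.74 at 8Gy. The groups did not overlap, and the rise was 3.26 (SE 0.22, adjusted p = 3.27e-11), a fold of 9.59. IL1A, the agonist released by injured cells, was at 7.73, 7.52 and 6.58, with 2 of 3 arrays above background, against 8.63, 8.67 and 7.85, a rise of 1.11 (SE 0.20, adjusted p = 0.000539). The antagonists rose as well. IL1RN, which blocks the IL-1 receptor, went from 7.22, 6.89 and 6.00, with 2 of 3 arrays above background, to 9.14, 9.24 and 8.64, a rise of 2.31 (SE 0.21, adjusted p = 8.81e-09). IL36RN, the antagonist of the IL-36 receptor, rose by 1.75 (SE 0.25) and IL33, an alarmin held in the nucleus, by 0.84 (SE 0.11). IL33 was above background on 1 of 3 arrays at 0Gy and changed by 0.41 when all its probes were averaged. IL36B changed by 0.90 (SE 0.22) and by 0.75 (adjusted p = 0.104) without 0Gy replicate 2.

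Cytokines of the IL-6 family and colony-stimulating factors had 7 of 19 tested members higher and none lower (list median 0.30), and 6 of the 7 were called in all 6 fits. IL6, which signals through gp130 and STAT3, was at 10.98, 10.19 and 8.75 at 0Gy and at 13.34, 13.39 and 12.28 at 8Gy. Its 0Gy samples spread over more than 2 log2 units, yet the groups did not overlap. The rise was 3.03 (SE 0.36, adjusted p = 8.11e-07), a fold of 8.19. LIF, another gp130 ligand, went from 7.63, 7.49 and 7.01 to 9.75, 10.00 and 9.56, a rise of 2.39 (SE 0.21, adjusted p = 6.04e-09). IL11, also a gp130 ligand, rose by 1.93 (SE 0.20) from 7.23, 7.76 and 7.44. CSF3, the growth factor of neutrophils, was at 9.58, 9.11 and 8.39 against 11.66, 12.43 and 11.20. Its rise was 2.74 (SE 0.32, adjusted p = 5.58e-07) with no overlap. IL24 rose by 1.79 (SE 0.19) and IL12A, a subunit of IL-12 and IL-35, by 0.84 (SE 0.12). SOCS3, which damps gp130 signalling, changed by 0.67 (SE 0.15, adjusted p = 0.00514) and was not called without 0Gy replicate 1.

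CXC chemokines that draw neutrophils made up all the CXC calls, 4 of 7 tested (list median 1.78), and each was called in all 6 fits. CXCL2 was at 9.73, 9.31 and 7.55 at 0Gy and at 11.38, 11.71 and 10.60 at 8Gy, a rise of 2.37 (SE 0.35, adjusted p = 3.01e-05). CXCL5 was at 6.73, 6.96 and 6.29 at 0Gy, above background on 1 of 3 arrays, and at 8.50, 9.18 and 8.45 at 8Gy, a rise of 2.05 (SE 0.18). CXCL1, above background on 2 of 3 arrays at 0Gy, rose by 1.92 (SE 0.23, adjusted p = 1.28e-06). CXCL8, the main human neutrophil attractant, was the brightest of the 4 and the most variable at 0Gy (13.69, 12.31 and 10.74). At 8Gy it was at 13.79, 14.59 and 13.69, so that 0Gy replicate 1 nearly met the lowest 8Gy sample. The fitted rise was 1.78 (SE 0.33, adjusted p = 0.000727). CXCL10 and CXCL14, which do not belong to the neutrophil group, were at 0.11 and 0.14.

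Of 7 CC chemokines tested, 5 were higher and none lower (list median 1.31). CCL3, which draws monocytes and lymphocytes, was at 7.18, 7.001 and 6.17 at 0Gy, above background on 2 of 3 arrays, and at 9.34, 9.93 and 8.51 at 8Gy. The rise was 2.47 (SE 0.26, adjusted p = 9.49e-08). The near-identical copies CCL3L3 (2.72) and CCL3L1 (2.13) share sequence with CCL3, so their probes are not separate observations, although the count above takes CCL3 and CCL3L3 separately. CCL20, the ligand of CCR6, went from 6.98, 7.08 and 6.12, with 2 of 3 arrays above background, to 9.35, 9.39 and 8.34, a rise of 2.30 (SE 0.22, adjusted p = 1.51e-08). CCL5 rose by 1.31 (SE 0.16) from 7.55, 7.69 and 6.97. CCL26 changed by 0.62 (SE 0.18) and lost its call when 0Gy replicate 2 or 3 or 8Gy replicate 2 was left out (adjusted p = 0.135, 0.228 and 0.219). CCL2, a monocyte attractant bright in these cells, overlapped between the groups at 10.25, 9.61 and 8.49 against 10.42, 10.35 and 8.90, with a change of 0.44 (SE 0.32, adjusted p = 0.498).

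Among NF-kB subunits and the genes that feed back on the pathway, 5 of 19 tested were higher and none lower (list median 0.29), all 5 in every leave-one-out fit. IER3, an early response gene of cell survival, rose by 1.51 (SE 0.15), NFKBIZ, a nuclear cofactor needed for IL6 transcription, by 1.39 (SE 0.23), and SOD2, the mitochondrial superoxide dismutase, by 1.08 (SE 0.24). TNIP1 and NFKBIA, which restrain the pathway, rose by 0.81 (SE 0.16) and 0.71 (SE 0.16). NFKBIA was at 11.80, 11.70 and 11.68 at 0Gy and at 12.29, 12.74 and 12.27 at 8Gy. The subunits themselves were closer to 0, with NFKB1 at 0.20 (SE 0.17, adjusted p = 0.583) and RELB at 0.28 (SE 0.16, adjusted p = 0.347).

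Prostaglandin genes moved both ways, with 2 of 10 tested higher and 3 lower. PTGS2 (cyclooxygenase 2), the inducible first enzyme of prostaglandin synthesis, was at 9.80, 9.30 and 7.92 at 0Gy and at 11.81, 11.97 and 11.28 at 8Gy. The rise was 2.68 (SE 0.25, adjusted p = 8.38e-09). PTGES, which makes prostaglandin E2 from its product, rose by 1.61 (SE 0.22, adjusted p = 9.35e-06). AKR1C3 and AKR1C2, aldo-keto reductases that act on prostaglandins and steroids, fell by 1.00 (SE 0.16) and 0.68 (SE 0.14), and AKR1C2 was at -0.13 when all its probes were averaged. Reductases of this family have near-identical sequences. ABCC4, an exporter of prostaglandins, changed by -0.61 (SE 0.17) and lost its call when 0Gy replicate 3 or either of 8Gy replicates 2 and 3 was left out (adjusted p = 0.134 to 0.155).

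Of the matrix metalloproteinases and their inhibitors, 5 of 15 tested were higher and 1 lower (list median 0.36). MMP3 (stromelysin 1), a protease of matrix that activates other metalloproteinases, was at 10.88, 10.84 and 10.04 at 0Gy and at 13.15, 13.41 and 13.57 at 8Gy. The 8Gy samples were tightly grouped and the rise was 2.79 (SE 0.25, adjusted p = 6.04e-09), a fold of 6.92. MMP1, a collagenase, went from 6.46, 7.09 and 6.61, with 1 of 3 arrays above background, to 8.22, 7.75 and 7.37, a rise of 1.06 (SE 0.22, adjusted p = 0.00204). MMP12, an elastase, was under background on all 3 arrays at 0Gy and at 8.02, 8.01 and 7.45 at 8Gy, at least 2.02-fold higher (adjusted p = 1.37e-06). This bound sets the 8Gy mean against the background level. ADAMTS1 rose by 0.86 (SE 0.15). TIMP1, an inhibitor of these proteases, rose by 0.66 (SE 0.12) and by 0.58 without 0Gy replicate 1, just under the fold threshold. TIMP4, the 1 lower gene, changed by -0.66 (SE 0.19) and lost its call when replicate 2 or 3 of 0Gy or replicate 3 of 8Gy was left out (adjusted p = 0.161, 0.169 and 0.272).

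Secreted protease inhibitors and the plasminogen system, the list that holds PI3, had 6 of 13 tested members higher and none lower (list median 0.28). SPINK1, a trypsin inhibitor, rose by 1.46 (SE 0.19) and TFPI2, a broad inhibitor of serine proteases, by 1.31 (SE 0.23). SERPINB4 was under background on all 3 arrays at 0Gy and at 8.20, 7.41 and 7.57 at 8Gy, at least 1.89-fold higher (adjusted p = 2.69e-05). PLAUR, the receptor of urokinase, went from 9.80, 10.20 and 10.12 to 11.29, 11.27 and 11.16, a rise of 1.20 (SE 0.15, adjusted p = 2.07e-06). PLAU, urokinase itself, changed by 0.60 (SE 0.17) and was not called without replicate 1 of either group (adjusted p = 0.0925 at 0.55 and 0.165 at 0.43).

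Ligands of the EGF receptor family and genes that the ERK pathway switches on had 10 of 16 tested members higher and none lower, with a list median of 0.74. All 16 had a change above 0. HBEGF, a membrane-anchored ligand, was at 8.42, 8.58 and 8.27 at 0Gy and at 10.64, 10.14 and 10.30 at 8Gy, a rise of 1.94 (SE 0.17, adjusted p = 6.04e-09). NRG1 (neuregulin 1), a ligand of ERBB3 and ERBB4, rose by 1.5 (SE 0.22, adjusted p = 2.88e-05) and was at 0.45 when all its probes were averaged. TGFA rose by 0.86 (SE 0.20, adjusted p = 0.00769). The receptor EGFR overlapped between the groups, with a change of 0.23 (SE 0.13, adjusted p = 0.35). Of the feedback inhibitors of ERK and EGFR signalling on this list, SPRY4 rose by 1.10 (SE 0.14), DUSP6 by 0.83 (SE 0.16), DUSP5 by 0.82 (SE 0.16) and SPRY2 by 0.66 (SE 0.15). ERRFI1 at 0.44, SPRED1 at 0.14 and DUSP4 at 0.13 were not called. FOSL1, a partner of JUN, was tight at 0Gy (8.33, 8.38 and 8.33) and at 8.94, 9.69 and 9.25 at 8Gy, a rise of 0.95 (SE 0.20, adjusted p = 0.00216). PHLDA1 rose by 0.85 (SE 0.12). SPRY4 and PHLDA1 were at 0.42 and 0.56 when all their probes were averaged, under the fold threshold. Without 0Gy replicate 3 the list had 8 calls.

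Vascular growth factor genes had 5 of 15 tested members higher and 1 lower (list median 0.15). FGF2, a growth factor for endothelium and glioma cells, went from 9.05, 9.12 and 8.47 to 10.26, 10.16 and 10.16, a rise of 1.31 (SE 0.18, adjusted p = 1.31e-05). ESM1, a secreted proteoglycan of endothelium, went from 6.75, 6.995 and 6.76, with 1 of 3 arrays above background, to 8.29, 8.12 and 7.01, and 8Gy replicate 3 stayed next to the 0Gy samples. Its change was 0.97 (SE 0.20, adjusted p = 0.0024). ANGPTL4, an inhibitor of lipoprotein lipase, rose by 1.38 (SE 0.29, adjusted p = 0.00281) and was at 0.53 when all its probes were averaged. VEGFA changed by 0.64 (SE 0.17) and lost its call on leaving out 0Gy replicate 1 or 8Gy replicate 3 (adjusted p = 0.154 and 0.172). ANGPT1, the ligand that keeps vessels quiet, changed by -0.66 (SE 0.14) and by -0.49 and -0.57 without replicate 1 of 0Gy and of 8Gy, under the fold threshold.

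In the TGF-beta list 6 of 25 tested genes were higher and 2 lower (list median 0.14). GDF15, a stress cytokine and p53 target, was at 11.46, 11.11 and 10.57 at 0Gy and at 12.40, 13.01 and 11.82 at 8Gy, a rise of 1.36 (SE 0.32, adjusted p = 0.00767). FST (follistatin), which binds activins, rose by 0.91 (SE 0.15), CCN1, a matricellular protein, by 0.95 (SE 0.18), and BMP2 by 0.63 (SE 0.15). ID1, a target of BMP signalling, changed by 0.97 (SE 0.26) and by 0.64 (adjusted p = 0.235) without 8Gy replicate 3. GREM1, which binds BMPs, changed by 0.83 (SE 0.26) and was called in 2 of the 6 leave-one-out fits. Of the lower genes, the receptor TGFBR2 changed by -0.63 (SE 0.14) and INHBE, an inhibin subunit, by -0.86 (SE 0.27), and both calls went when 0Gy replicate 3 or 8Gy replicate 2 was left out. Of the insulin-like growth factor binding proteins, IGFBP3 was at 9.85, 10.74 and 9.27 against 10.62, 11.90 and 11.16. These groups overlapped while each pair of the same number rose, and the fitted change was 1.27 (SE 0.30, adjusted p = 0.00826). IGFBP1 rose by 1.16 (SE 0.28, adjusted p = 0.00921). These were the 2 of 10 members tested that rose, with a list median of 0.27. The 1 lower member, IGF2BP3, binds RNA rather than the growth factors, and its change of -0.70 (SE 0.22) lost its call in 5 of the 6 fits that left out a sample.

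The largest fall was in lipid synthesis. SCD, the desaturase that makes monounsaturated fatty acids, was at 13.27, 13.93 and 13.54 at 0Gy and at 11.99, 11.02 and 11.25 at 8Gy. The groups were more than 1 log2 unit apart, and the fall was -2.16 (SE 0.30, adjusted p = 1.26e-05), a fold of 4.48. Of 14 fatty acid synthesis genes tested, 5 were lower and none higher (list median -0.35), against 1.19% lower over all genes. SREBF1, which encodes the factor that drives this set, was at 8.97, 9.56 and 9.43 against 8.36, 8.41 and 8.04, a fall of -1.05 (SE 0.17, adjusted p = 0.000115). Averaged over all its probes, SREBF1 was at -0.46. ACACA, the rate-limiting carboxylase, fell by 0.69 (SE 0.13) and was at -0.44 over all probes, and FADS1, a desaturase of polyunsaturated fatty acids, fell by 0.86 (SE 0.19). FASN, fatty acid synthase, changed by -0.81 (SE 0.20, adjusted p = 0.0125) and by -0.67 (adjusted p = 0.11) without 0Gy replicate 2.

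**Figure D2:**
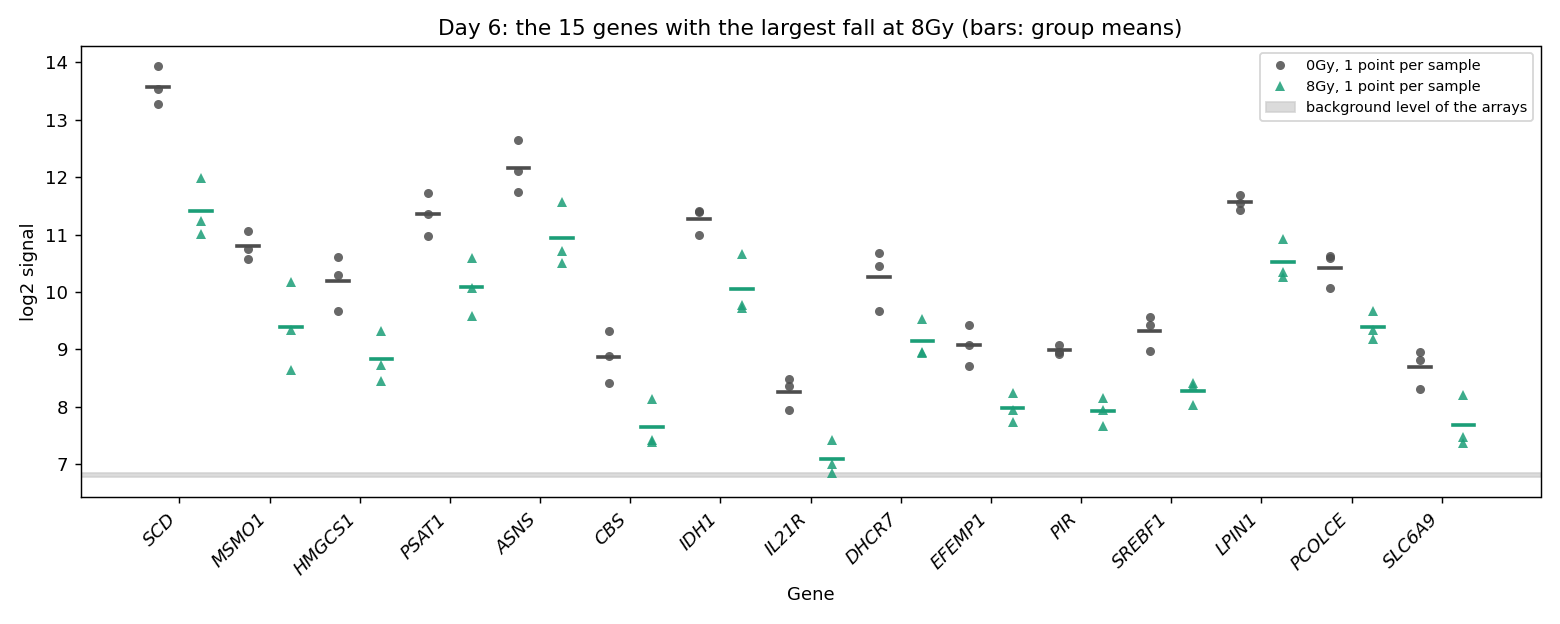
Log2 signal (vertical axis) of the 15 genes with the largest fall at 8Gy on day 6, 1 point per sample, with bars at the group means and a band at the background level. The groups do not overlap in any of the 15 genes, and the gap is widest for SCD, at 13.27 to 13.93 against 11.02 to 11.99.

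All 20 cholesterol genes tested had a change under 0, with a list median of -0.50, and 7 were called lower. MSMO1, a demethylase of sterol precursors, was at 10.58, 11.07 and 10.75 at 0Gy and at 10.17, 8.64 and 9.34 at 8Gy, a fall of -1.41 (SE 0.30, adjusted p = 0.00253). HMGCS1, which feeds the mevalonate pathway, went from 9.66, 10.60 and 10.30 to 9.32, 8.45 and 8.74, a fall of -1.35 (SE 0.24, adjusted p = 0.000335). DHCR7, the last enzyme of cholesterol synthesis, fell by 1.13 (SE 0.26) and LPIN1, a phosphatidate phosphatase of glycerolipid synthesis, by 1.05 (SE 0.22). In all 4 of these genes the first replicate gave the lowest 0Gy and the highest 8Gy sample. INSIG1, SQLE and EBP completed the calls, at -0.68, -0.67 and -0.59. The list had 10 calls when replicate 1 of either group was left out. It had 4 when replicate 2 or 3 of 0Gy or replicate 3 of 8Gy was left out, and 5 for replicate 2 of 8Gy. SREBF2, the factor that drives sterol genes, was near background at -0.16 (SE 0.14).

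Among genes of ATF4 and the unfolded protein response, 6 of 29 tested were lower and 1 higher (list median -0.29). Apart from NUPR1, a stress-induced transcription cofactor, the lower genes were of serine and asparagine synthesis and of tRNA charging. PSAT1, in serine synthesis, was at 10.97, 11.73 and 11.36 at 0Gy and at 10.59, 9.59 and 10.07 at 8Gy, a fall of -1.27 (SE 0.29, adjusted p = 0.0056). ASNS, asparagine synthetase, was at 11.75, 12.64 and 12.10 against 11.58, 10.72 and 10.50, a fall of -1.23 (SE 0.28, adjusted p = 0.0056), and 8Gy replicate 1 lay just under 0Gy replicate 1. PHGDH, the first enzyme of serine synthesis, fell by 0.89 (SE 0.20). WARS1, SARS1 and NUPR1 changed by -0.76, -0.71 and -0.80 and were each lost in at least 1 leave-one-out fit. The list had 8 lower calls when replicate 1 of either group was left out, 3 for replicate 2 of 0Gy and 4 for replicate 3 of 8Gy. The 1 gene that rose was ATF3, a stress-induced repressor, from 8.87, 8.26 and 8.01 to 10.03, 10.22 and 9.49, by 1.54 (SE 0.22, adjusted p = 1.36e-05). ATF3 was at 0.58 when all its probes were averaged. DDIT3, which encodes CHOP, overlapped between the groups at 0.64 (SE 0.27, adjusted p = 0.176).

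Among the other large falls were more genes of metabolism. CBS, which joins serine and homocysteine, fell by 1.23 (SE 0.23, adjusted p = 0.000862), from 8.42, 9.31 and 8.89 to 8.13, 7.42 and 7.38. SLC6A9, a glycine transporter, fell by 1.01 (SE 0.23) and was at -0.32 over all its probes. IDH1, which makes NADPH in the cytosol, was at 10.998, 11.41 and 11.40 against 10.67, 9.77 and 9.72, a fall of -1.21 (SE 0.25, adjusted p = 0.00197). IL21R, a cytokine receptor, fell by 1.18 (SE 0.19) toward background and was at -0.32 over all its probes.

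In the list of NRF2 targets and aldo-keto reductases 6 of 19 tested genes were lower and none higher, all 6 in every leave-one-out fit, while the list median was -0.02. The lower genes were AKR1C3, AKR1C2, AKR1B10, NQO1, TKT and PGD. NQO1, a quinone reductase, was at 12.17, 12.11 and 12.50 at 0Gy and at 11.43, 10.95 and 11.56 at 8Gy, a fall of -0.94 (SE 0.16, adjusted p = 0.000152), and it was at -0.54 over all its probes. TKT and PGD, enzymes of the pentose phosphate pathway that yield ribose and NADPH, fell by 0.91 (SE 0.14) and 0.76 (SE 0.15). AKR1B10 fell by 0.89 (SE 0.14). PIR, which encodes pirin, was tight at 0Gy (9.08, 8.95 and 8.92) and at 8.15, 7.95 and 7.67 at 8Gy, a fall of -1.06 (SE 0.14, adjusted p = 4.11e-06). The other 13 members of the list that were tested were not called, among them HMOX1 at 0.54 (SE 0.23, adjusted p = 0.186), GCLM at 0.49 and ABCC3, which had the lowest value of these, at -0.34.

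Matrix genes moved in both directions, with 6 of 35 tested higher and 3 lower (list median -0.02). TGM2, which crosslinks matrix proteins, was at 10.29, 10.64 and 10.22 at 0Gy and at 12.02, 12.17 and 12.07 at 8Gy, a rise of 1.70 (SE 0.15, adjusted p = 6.04e-09). DCN (decorin) rose by 1.39 (SE 0.17), the collagen receptor subunit ITGA2 by 1.16 (SE 0.19), and LOX, which crosslinks collagen, by 1.04 (SE 0.25). The collagen chain COL1A2 was at 12.36, 12.09 and 12.19 against 11.53, 11.46 and 11.24, a fall of -0.80 (SE 0.15, adjusted p = 0.000894). SPARC, which binds collagen, fell by 0.76 (SE 0.17). The list had 5 lower calls without 8Gy replicate 1. PCOLCE, an enhancer of procollagen processing, fell by 1.03 (SE 0.14, adjusted p = 1.07e-05) and EFEMP1, a fibulin, by 1.10 (SE 0.15, adjusted p = 1.45e-05).

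Of the interferon-stimulated genes 5 of 27 tested were lower and 1 higher (list median -0.18). IFITM3, which blocks virus entry, was at 10.20, 10.43 and 10.26 at 0Gy and at 9.47, 9.76 and 9.55 at 8Gy, a fall of -0.70 (SE 0.15, adjusted p = 0.00348). GBP2, a guanylate-binding protein, fell by 0.70 (SE 0.15). IFIT1 fell by 0.63 (SE 0.14) and was at -0.28 over all its probes. IFI44L and IFITM2 changed by -0.91 and -0.61, and ISG20, the 1 higher gene, by 0.70, each with a call that was lost in at least 1 leave-one-out fit, so that 3 to 4 genes were lower in those fits.

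Hypoxia-responsive and glycolysis genes had 6 of 29 tested higher and none lower (list median 0.22), with 3 to 6 calls when single samples were left out and 3 without 8Gy replicate 3. ADM (adrenomedullin), a vasodilator peptide, rose by 0.90 (SE 0.16, adjusted p = 0.000365) and PFKFB3, which raises glycolytic flux, by 0.74 (SE 0.16). Metallothioneins, small proteins that hold zinc and copper, had 4 of 8 tested higher and none lower (list median 0.60). MT1G was at 9.46, 9.39 and 9.25 at 0Gy and at 10.95, 11.21 and 10.34 at 8Gy, a rise of 1.47 (SE 0.17, adjusted p = 4.61e-07), and MT1X rose by 1.07 (SE 0.15). MT1M and MT1H, at 0.61 and 0.59, were lost when replicate 2 or 3 of 0Gy or replicate 1 of 8Gy was left out, which left 2 calls. Metallothionein genes are close in sequence, and their probes may share signal.

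CDKN1A, the p53-induced inhibitor of cyclin-dependent kinases, was at 12.60, 12.61 and 12.55 at 0Gy and at 12.97, 13.05 and 13.08 at 8Gy. The groups were tight and did not overlap, and the change was 0.45 (SE 0.12, adjusted p = 0.0192), under the fold of 1.5. Of 30 p53 targets tested, GDF15 and GADD45A were higher and none lower (list median 0.09). GADD45A, a DNA damage response gene, rose by 1.11 (SE 0.17, adjusted p = 3.5e-05). MDM2, which marks p53 for breakdown, was at 0.12 (SE 0.10, adjusted p = 0.542) and close to background.

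Of 53 mitosis genes tested, 3 were lower and none higher (list median -0.18), and only 6 had a change above 0. The list median of 8Gy against 0Gy was -0.45 on day 1 and 0.08 on day 4. DLGAP5, a spindle protein, changed by -0.70 (SE 0.20), ASPM by -0.70 (SE 0.21) and CCNB2, a mitotic cyclin, by -0.61 (SE 0.16). No one of them was called in all 6 fits. There were no calls without 0Gy replicate 3, in which all 3 genes were highest, and 1 without 8Gy replicate 2. TOP2A, the topoisomerase of dividing cells, was at 9.79, 9.84 and 10.41 against 9.51, 9.44 and 9.72 (-0.46, SE 0.16, adjusted p = 0.0949), and CCNA2 was at -0.30 (SE 0.19). The probe of MKI67 was near background in both groups at -0.10 (SE 0.09). The 0Gy cells themselves were lower in these genes on day 6 than on day 1. Mean 0Gy levels of DLGAP5, ASPM, CCNB2 and CCNA2 were 9.53, 10.15, 10.93 and 10.51 on day 1. On day 6 they were 8.70, 9.46, 10.01 and 9.22. No gene passed among 45 of DNA replication, 38 of DNA repair, 21 of chromatin and lamina and 20 CDK inhibitors, D cyclins and MYC genes, with list medians of -0.02, -0.07, -0.02 and 0.02. In limma 3, 8, 3 and 4 of them had an unadjusted p under 0.05, as did 2179 of all 11340 genes tested. An analysis of variance called none of the genes of these 4 lists. At the 3.22% called over all genes tested, lists of these sizes may hold no call.

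Histone genes had 8 of 30 tested members higher and none lower (list median 0.21), all 8 in every leave-one-out fit. H2AC18, an H2A gene of the replication-dependent kind, was at 9.30, 8.97 and 8.50 at 0Gy and at 10.72, 11.39 and 10.45 at 8Gy, a rise of 1.93 (SE 0.22, adjusted p = 4.71e-07), a fold of 3.80. H2AC20 (1.75, SE 0.23) is another H2A gene, and the count above takes them separately although their probes may share signal. H2AJ, a variant H2A, went from 9.04, 9.22 and 9.30 to 10.25, 11.03 and 10.13, a rise of 1.28 (SE 0.20, adjusted p = 8.3e-05). H2BC21 rose by 1.03 (SE 0.15), H2BC5 by 0.88 (SE 0.17), H2AC6 by 0.85 (SE 0.17), the linker histone H1-2 by 0.83 (SE 0.18) and H2BC12 by 0.72 (SE 0.15). H2BC5 was at 0.58 over all its probes.

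No member was called by limma in 7 further lists, which were antigen presentation (15 tested), the respiratory chain (40), the BCL2 family (17), lysosome and autophagy (26), axon guidance and glial genes (15), ribosomal proteins (24) and housekeeping genes (11). Their medians lay between -0.09 and 0.09. In that order 2, 6, 6, 8, 5, 6 and 3 members had an unadjusted p under 0.05 in limma, against 2179 of all 11340 genes tested. An analysis of variance called 1 BCL2 family gene and no other. With single samples left out, at most 1 member of any of these lists was called in a direction. The share called over all genes tested was 3.22%, at which lists of these sizes may hold no call. The lack of calls does not show that these genes were unchanged.

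**Figure D3:**
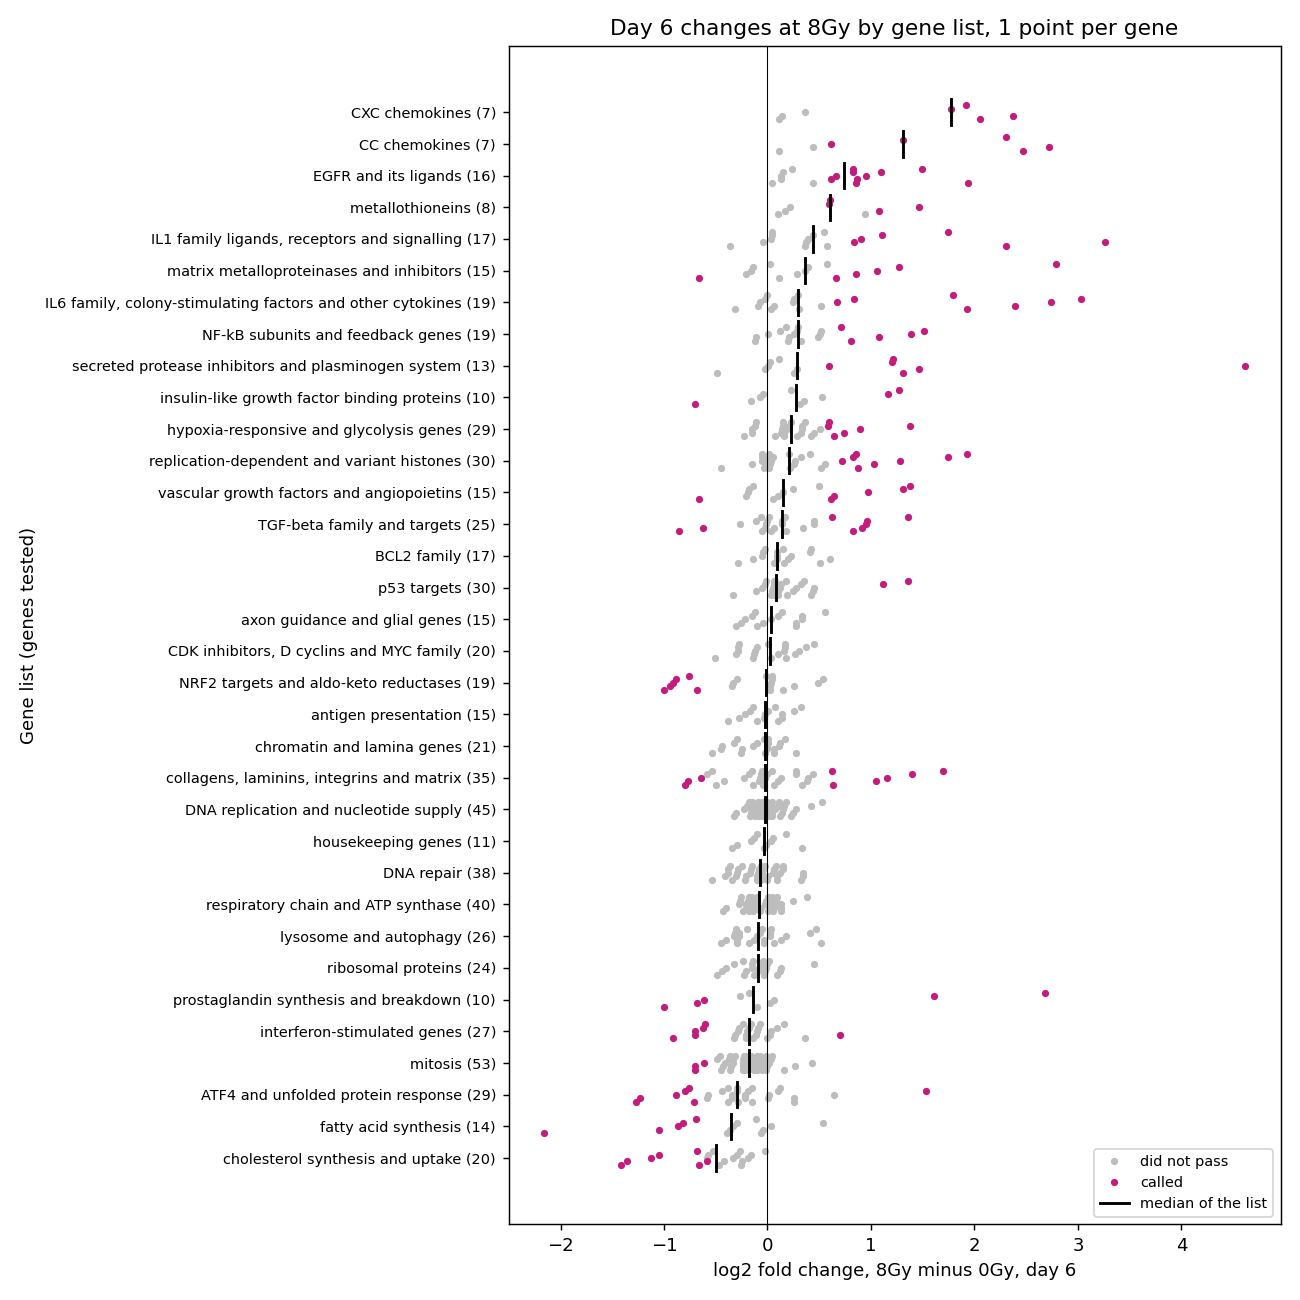
Log2 fold change at 8Gy against 0Gy on day 6 (horizontal axis) for each tested gene of 34 gene lists, ordered by list median (vertical bars), with called genes in colour and the number tested in brackets. CXC chemokines (median 1.78), CC chemokines (1.31) and the EGFR list (0.74) stand at the top, and cholesterol genes (-0.50) and fatty acid genes (-0.35) at the bottom.

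Samples of a group differed in step. In the 15 genes with the largest rise, replicate 3 was the lowest 0Gy sample in all 15 and the lowest 8Gy sample in 14. In the 15 genes with the largest fall, replicate 1 was the lowest 0Gy sample in 13 and the highest 8Gy sample in 12. Replicate 1 thus had the narrowest gap in most of the falls. It is also the replicate that averages 2 technical runs, and the part of that in the gap was not tested.

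To ask whether a larger dose went further, the 16Gy samples of day 6 were set against the 8Gy samples. The contrast uses no 0Gy sample. It called 45 genes (0.397% of those tested), 34 higher and 11 lower at 16Gy. Since it shares the 8Gy samples with the comparison above, the values of single genes are given side by side. The count leaned on single samples. It was 70 when 8Gy replicate 1 was left out and 4 when 8Gy replicate 3 was, and it was 27 and 11 on leaving out replicates 2 and 3 of 16Gy. Of the 45, 4 genes were called in all 6 fits.

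ESM1 had the largest difference between the doses. It was at 8.29, 8.12 and 7.01 at 8Gy and at 9.43, 9.65 and 9.78 at 16Gy, higher by 1.81 (SE 0.20, adjusted p = 7.87e-06), in all 6 fits. CCL3 was at 10.55, 11.12 and 10.57 at 16Gy, above each 8Gy sample, and differed by 1.49 (SE 0.26, adjusted p = 0.00344), with CCL3L3 and CCL3L1 alike. The CCL3 call was lost without 8Gy replicate 3, its lowest 8Gy sample. MMP12 differed by 0.99 (SE 0.15, adjusted p = 0.00187) in all 6 fits. CXCL5 differed by 0.92 (SE 0.18, adjusted p = 0.0118) and was lost without replicate 3 of either dose. GREM1, DEFB103A and MMP1 differed by 1.09, 1.05 and 0.90 and were called in 2 of the 6 fits each. NFIC, the only one of the 10 largest that was lower at 16Gy (-0.88, adjusted p = 0.0522), did not differ from 0Gy at 8Gy (0.01, SE 0.21) and kept its call in 3 fits.

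**Figure D4:**
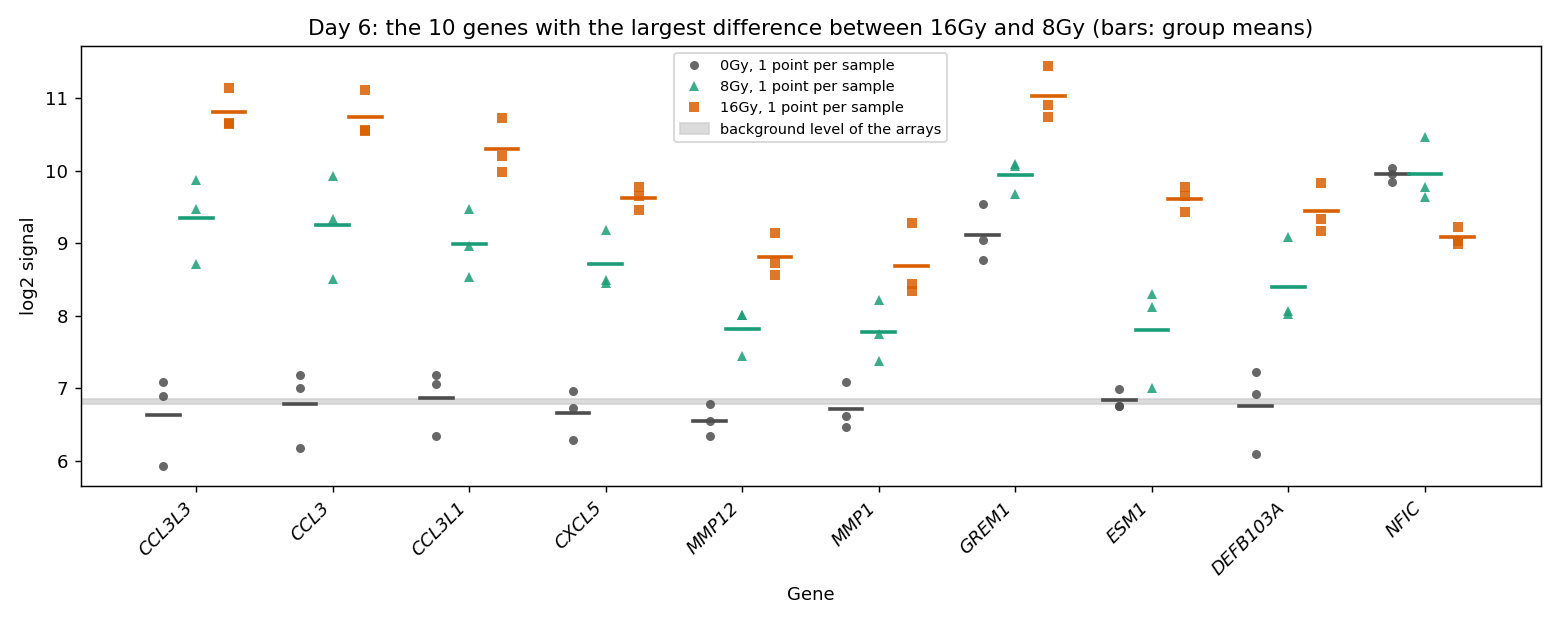
Log2 signal (vertical axis) on day 6 of the 10 genes with the largest called difference between 16Gy and 8Gy, 1 point per sample at 0, 8 and 16Gy, with bars at the group means and a band at the background level. In 9 genes the means step up from 0Gy through 8Gy to 16Gy, as in ESM1 (6.83, 7.81 and 9.62), and NFIC is lower at 16Gy only.

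For several other large rises the difference between the doses did not pass the test. PI3 was higher at 16Gy than at 8Gy by 0.56 (SE 0.22, adjusted p = 0.301), IL1B by 0.10 (SE 0.22), IL6 by 0.07 (SE 0.36), MMP3 by 0.12 (SE 0.25) and PTGS2 by 0.15 (SE 0.25). For SCD the difference was -0.51 (SE 0.30, adjusted p = 0.503) and for ASNS -0.11 (SE 0.28). These values do not show that the doses act alike.

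The same contrast on earlier days shows when the changes appeared. On day 4, which uses other samples, 8Gy changed 202 genes (1.78%), and 158 of them changed in the same direction on day 6. This is 78.2% of the day 4 calls and 43.3% of the day 6 calls. On day 1 it changed 15 genes (0.132%), of which 2 were called in the same direction on day 6. A direct test of the effect on day 6 against that on day 4 called no gene in limma. Of the 11340 genes tested, 387 reached an unadjusted p under 0.05, fewer than that threshold passes on average when nothing differs. The test called 1 gene when replicate 3 of 0Gy on day 4, or replicate 1 or 2 of 0Gy on day 6, was left out. Against day 1, the effect differed in 333 genes (2.94%), 146 upward and 187 downward. That count leaned on single samples. It fell to 193 and 212 on leaving out replicate 1 of 0Gy and replicate 2 of 8Gy on day 1. On day 6 it fell to 213 and 196 for replicates 2 and 3 of 0Gy and to 192 for replicate 2 of 8Gy.

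The leading genes reached their day 6 level by different paths. PI3 at 8Gy was at 8.90 ± 0.39, 11.84 ± 0.85 and 12.69 ± 0.66 (mean ± SD, n = 3) on days 1, 4 and 6, while at 0Gy it was at 8.40 ± 0.49, 8.84 ± 0.95 and 8.07 ± 0.90. IL6 at 8Gy was at 9.36 ± 0.22, 12.89 ± 0.69 and 13.00 ± 0.62 on those days, while at 0Gy it was at 8.67 ± 0.31, 9.94 ± 1.12 and 9.97 ± 1.13. Both climbed mainly between days 1 and 4 in irradiated cells. For MMP3 the 0Gy level was at 11.43 ± 0.69 on day 1 and 10.59 ± 0.47 on day 6, and the 8Gy level at 11.51 ± 0.33 and 13.38 ± 0.22.

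In SCD and MSMO1 the mean 0Gy level moved more over the days than the mean 8Gy level, while EBP was at 10.02 ± 0.22 and 9.98 ± 0.41 at 0Gy on days 1 and 6 and at 9.85 ± 0.16 and 9.39 ± 0.07 at 8Gy. SCD at 0Gy was at 10.55 ± 0.56, 12.90 ± 0.29 and 13.58 ± 0.33 on days 1, 4 and 6, and at 8Gy it was at 11.004 ± 0.39, 11.42 ± 0.47 and 11.42 ± 0.51. Sham-irradiated cells on day 6 differed from those on day 1 in 8.37% of the genes tested, and they were higher by 3.04 for SCD (adjusted p = 4.31e-07), 2.01 for MSMO1 (adjusted p = 2.11e-05) and 2.14 for ASNS (adjusted p = 5.37e-06). Of the 135 genes called lower at 8Gy, 82 were called higher at 0Gy on day 6 than on day 1 and 3 lower. Of the 230 called higher at 8Gy, 55 were called lower at 0Gy on day 6 than on day 1 and 19 higher. Both contrasts share the 0Gy samples of day 6. MSMO1 at 0Gy was at 8.79 ± 0.32, 9.92 ± 0.32 and 10.80 ± 0.25, and at 8Gy at 9.12 ± 0.22, 9.30 ± 0.26 and 9.39 ± 0.77. The mean 8Gy level of SCD and MSMO1 on day 6 was thus not below the mean of either group on day 1. ASNS had the same course, with 10.03 ± 0.13, 11.95 ± 0.28 and 12.16 ± 0.45 at 0Gy against 9.94 ± 0.22, 10.72 ± 0.67 and 10.93 ± 0.57 at 8Gy. CDKN1A differed from these, with 8Gy above 0Gy by 0.61, 0.66 and 0.45 on days 1, 4 and 6.

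**Figure D5:**
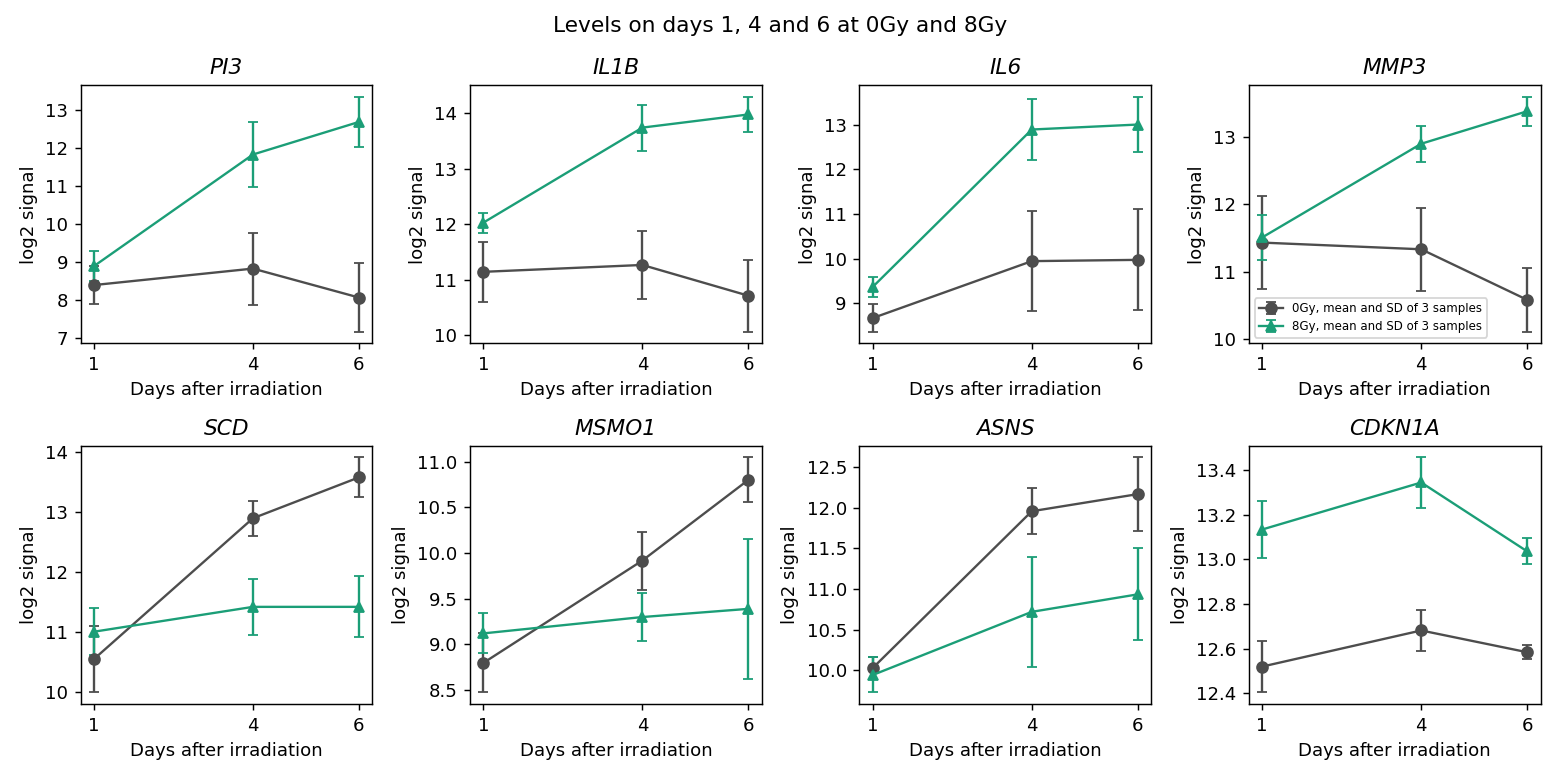
Log2 signal (vertical axis, its range set for each gene) of 8 genes on days 1, 4 and 6 (horizontal axis) at 0Gy and 8Gy, as the mean and SD of 3 samples. PI3, IL1B, IL6 and MMP3 climb at 8Gy, SCD, MSMO1 and ASNS climb more at 0Gy than at 8Gy, and CDKN1A is higher at 8Gy on each day.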

How the data were processed

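The deposited values were log2 signals that the authors had extracted with GenomeStudio, quantile normalized and batch corrected (ComBat) over the 27 short-term samples, with day 35 normalized apart. The batches are not named. The fit below took no account of the batch correction, so its p-values may be too small. A second table of 96 columns headed by running numbers could not be assigned to samples and was not used. Of 47300 probes, 30100 name 1 gene, 8 several and 17192 none, and the brightest probe stood for each of 20041 genes. Tested genes (11340) exceeded the 95th percentile of 455 olfactory receptor probes in every sample of at least 1 group, and the 8Gy day 6 median SE was 0.13.

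limma 3.58.1 (in R 4.3.3) was fitted to the 27 short-term samples, with group means and replicate number as terms. It used a mean-variance trend and Benjamini-Hochberg adjustment, after tests on simulated data. The study's methods name an analysis of variance with no such term. It was run as an alternative. Controls were sham irradiated in parallel for each replicate per the labels, and same-numbered 0Gy and 8Gy samples deviated together (r of 0.28, 0.123 and 0.247). The number of arrays limits the precision, and 3 samples against 3 give no exact permutation p under 0.10.

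Named genes were the 15 largest rises and falls called in every leave-one-out fit and alike in all pairs, up to 6 called members of each list with others whose role was needed, the 10 largest dose differences, CDKN1A, MKI67 and GAPDH. The comparison, members and lists were chosen with earlier results of these data known. "At least" folds set the 8Gy mean against the background level. Alternatives covered scaling, filters, probes, thresholds, the replicate term and single samples.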

Additional observations from a re-analysis of the deposited data

Results flagged for a closer look

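Among the 15 largest rises and the 15 largest falls, 25 genes had an effect of 8Gy that differed between day 6 and day 1 in limma's test of the difference itself, on the log2 scale. The effect was higher on day 6 for PI3 by 4.12, MMP3 by 2.71, CCL3L3 by 2.52, IL1B by 2.38, IL6 by 2.34, CSF3 by 2.32, IL1RN by 2.21, LIF by 2.19, CCL3 by 2.18 and CCL20 by 2.18. It was also higher for PTGS2 by 2.0, CCL3L1 by 1.96, CXCL5 by 1.96 and CXCL2 by 1.81. The 3 near copies CCL3, CCL3L1 and CCL3L3 count as 1 observation.

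The effect was lower on day 6 for the lipid genes SCD by -2.62, MSMO1 by -1.74, HMGCS1 by -1.30, SREBF1 by -1.25 and LPIN1 by -1.25. It was lower for IDH1 by -1.42, IL21R by -1.39, CBS by -1.18, PCOLCE by -1.09, PIR by -0.90 and EFEMP1 by -0.87. Days 1 and 6 were separate harvests, and culture age moves with the day.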

How the results depend on the processing

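The 365 calls at 8Gy (230 higher, 135 lower) became 113 (96 and 17) at a fold over 2, and 185 (143 and 42) under the methods' analysis of variance with Bonferroni-Holm adjustment, of which 182 were shared. Averaging all probes of a gene left 282. Other scalings, filters, thresholds and sample sets gave 348 to 376 calls. With single samples left out, the calls ranged from 329 to 506, the higher from 218 to 280 and the lower from 108 to 226. The genes that differed between 16Gy and 8Gy ranged from 4 to 70, those whose 8Gy effect differed between days 4 and 6 from 0 to 1, and those for days 1 and 6 from 192 to 373.

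Without the replicate block, 361 genes were called (227 higher, 134 lower), all shared, with 42 between doses, 0 for days 4 and 6 and 316 for days 1 and 6. INSIG1 (adjusted p = 0.118), MT1H (0.15) and MT1M (0.158) lost their call.

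Of 2063 values of 129 named genes under the alternatives, 1958 kept direction and call and 100 lost the call, and 5 turned in sign. Of the 1958, 129 came from dropping a floor on low signals, which could change nothing because no value lay under it. GAPDH ranged from -0.0647 to 0.0298 with single samples left out. NFIC ranged from -0.3176 to 0.2215 and was at -0.0162 when all its probes were averaged. The cause was not tested. Probes near background limit what the arrays can show.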

Other observations

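Several genes outside the lists stood among the calls and were chosen after their values were seen. STC1, a secreted glycoprotein of calcium and phosphate balance, was at 11.09, 10.81 and 10.36 at 0Gy and at 12.43, 12.66 and 12.61 at 8Gy, higher by 1.81 (SE 0.16). F3 (tissue factor), which starts coagulation, rose by 1.49 (SE 0.19), and SERPIND1, an inhibitor of thrombin, by 1.96 (SE 0.22). ODC1 and SAT1, which make and break down polyamines, both rose, by 1.35 (SE 0.18) and 1.01 (SE 0.13). Immediate-early genes were uneven. DUSP1, a phosphatase of MAP kinases, went from 10.51, 10.40 and 10.20 to 11.77, 11.99 and 12.04, a rise of 1.56 (SE 0.13), and MAFF and JUN rose by 1.61 and 0.77, while EGR1 was at 0.07 (SE 0.19, adjusted p = 0.872) and FOS was below background on all 6 arrays.

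Of 105 small nuclear and nucleolar RNA genes tested, 11 were higher and none lower, with a median of 0.07. Over all genes tested 2.03% were higher. This family too was chosen after its values were seen. SNORD3A, a small nucleolar RNA of ribosomal RNA processing, was at 7.53, 7.75 and 7.14 against 8.92, 9.22 and 8.88, a rise of 1.53 (SE 0.17). RN7SK, which holds back transcription elongation, rose by 1.02 (SE 0.17). Such families have near copies, and their probes may share signal.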
